A study of Mus musculus with 2 samples.

Results

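The unfolded protein response (UPR) was followed through 10 genes, Hspa5, Hsp90b1, Calr, Pdia4, Pdia6, Sdf2l1, Herpud1, Xbp1, Atf4 and Ddit3, in single cells of dystrophic mouse muscle. The genes were chosen by symbol, as rows of the count matrices, and all 10 were found among the 24984 gene symbols measured. Their unique molecular identifiers (UMIs, counted molecules) were summed over the cells of each cell class in each library. Levels are given as CPM, the UMIs of a gene per 1000000 UMIs of that class in that library.

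Secreted and membrane proteins fold in the endoplasmic reticulum (ER), where chaperones bind unfolded chains and disulfide isomerases pair their cysteines. When unfolded protein accumulates, 3 kinds of ER membrane sensor respond. ATF6 is cut to release a transcription factor that binds the ER stress response element (ERSE) of chaperone promoters, IRE1 splices Xbp1 mRNA into its active form, and PERK phosphorylates eIF2alpha, which favours translation of ATF4. ATF4 is also made when other eIF2alpha kinases act, in the integrated stress response, and induces Ddit3 (CHOP) and genes of amino acid supply. In muscle, fibroblasts that secrete collagen and cells that make other secreted proteins carry a high folding load. The counts hold mRNA only, so Xbp1 splicing, ATF6 cleavage and ATF4 translation were not measured.

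Both libraries came from live mononuclear cells of hind limb muscle of young mdx mice (C57BL/10 ScSn background), which lack dystrophin and undergo repeated degeneration and regeneration. Ctrl mice were Pax7CreERT2/R26YFP with Yy1+/+, and dKO mice were Pax7CreERT2/R26YFP with Yy1 f/f, all on the mdx background. Per the study's methods both genotypes were given tamoxifen about a month before the muscles were taken, whereas the deposited label of Ctrl reads no treatment, and the counts do not show which holds for Ctrl. The Cre is driven by Pax7, so deletion of Yy1, a transcription factor, is aimed at muscle stem cells (MuSCs), and the other cells of dKO muscle carry the same alleles but are not cells that express Pax7. Cells of several mice were pooled into 1 library per genotype. There are therefore no replicates, no test was possible, and every interval below is a 95% interval that covers counting error only. A difference between Ctrl and dKO is a difference between these libraries, and genotype, pool of mice and library preparation cannot be told apart.

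The promoters of 5 members are shown because they hold the sequences through which UPR factors are known to act on ER chaperone genes. Each stretch was read 5′ to 3′ on the strand of its gene from RefSeq promoters (GRCm38.p6), and capitals mark matches to ERSE (CCAAT, 9 bases, CCACG), ERSE-II (ATTGG, 1 base, CCACG), the UPRE core TGACGTG bound by XBP1 and ATF6, and the core TGATGNAA of the C/EBP-ATF response element (CARE) bound by ATF4, each searched on both strands.
Hspa5, chr2:34771928-34772048, plus strand: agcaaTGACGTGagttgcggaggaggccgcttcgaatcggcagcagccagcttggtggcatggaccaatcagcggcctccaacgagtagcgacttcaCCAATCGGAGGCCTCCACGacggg
Hsp90b1, chr10:86705528-86705661, minus strand: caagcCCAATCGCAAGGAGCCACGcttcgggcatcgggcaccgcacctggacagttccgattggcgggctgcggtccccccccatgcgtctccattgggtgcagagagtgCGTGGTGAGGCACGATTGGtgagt
Calr, chr8:84847070-84847098, minus strand: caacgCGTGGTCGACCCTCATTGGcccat
Pdia6, chr12:17266486-17266514, plus strand: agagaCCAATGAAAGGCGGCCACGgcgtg
Herpud1, chr8:94386312-94386392, plus strand: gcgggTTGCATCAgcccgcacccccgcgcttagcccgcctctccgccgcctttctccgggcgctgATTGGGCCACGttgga

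The search window ran from 250 bases before to 50 bases after each start, and all 10 members had an entry. ERSE matched 39 of 32851 promoters (0.119%). Of the members it matched Hspa5, Hsp90b1, Calr and Pdia6, with 2 matches in Hsp90b1 on opposite strands, and it matched no window of Pdia4, Sdf2l1, Xbp1, Atf4, Ddit3 or Herpud1. The Hspa5 match lay 65 to 47 bases before the start. ERSE-II matched 12 promoters (0.0365%), among them Herpud1, where it lay 52 to 42 bases before the start. The Hspa5 window also held the UPRE core, found in 2.01% of promoters, and the Herpud1 window held the CARE core on the opposite strand, found in 3.97%. The single parts of ERSE were common: CCAAT occurred in 37.4% and CCACG in 32.8% of promoters. Both occurred in all 6 ER-lumen chaperones, in Herpud1 and in Atf4. A core of the YY1 site, GCCATNTT (6.05% of promoters), was found in none of the 10 windows. These matches are letters in a window, and binding was not measured.

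On GRCm38 the members lie on 8 chromosomes. Hspa5 lies at chr2:34771970-34777547 and Xbp1 at chr11:5520659-5525893, both on the plus strand, and Ddit3 (chr10:127290829-127293753) lies on the plus strand of the chromosome that also carries Hsp90b1 on the minus strand (chr10:86690209-86705509). Calr (chr8:84841850-84846934, minus strand) and Herpud1 (chr8:94386438-94395377, plus strand) also share a chromosome. Hsp90b1 overlaps 1810014B01Rik, Pdia6 overlaps Atp6v1c2 and Pdia4 overlaps Mir704, all counted genes. How the counting treated overlaps is not given in the sources used here.

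The files held 4527 Ctrl and 3483 dKO barcodes with 45556596 and 33815155 UMIs, and 4010 and 3079 cells were kept, with medians of 7880 and 7806 UMIs. The libraries shared 7 barcodes. Clusters were named from marker genes, which gave 13 classes with at least 20 cells in each library. The largest were fibro-adipogenic progenitor (FAP)-like cells (1088 Ctrl, 1143 dKO), monocyte/macrophage (MO/MP)-like cells (1178, 952) and endothelial cell (EC)-like cells (464, 179). A class led by Mymx, where the MuSC markers were highest, numbered 117 and 30 cells. The summed marker list of each of these classes was high in both libraries (FAP list 44114 and 41138 CPM, MO/MP list 16028 and 16418 CPM, EC list 23219 and 22385 CPM, MuSC list 3452 and 4066 CPM, none with a marker at 0). An Fcna-led cluster (242, 178 cells) had MO/MP markers at 18822 and 18828 CPM but did not meet the naming rule and is kept apart. Yy1 UMIs in Mymx-led cells numbered 369 in Ctrl and 3 in dKO, or 160 and 4.85 CPM, a ratio of 0.0304 (0.00623 to 0.0894). In other classes the Yy1 ratio was 0.992 (0.851 to 1.15) in EC-like, 1.09 (1.02 to 1.16) in FAP-like and 1.12 (1.04 to 1.21) in MO/MP-like cells.

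Which classes held most of the folding machinery was read from the sum of the 6 ER-lumen members: Hspa5 (BiP, the main Hsp70 chaperone of the ER), Hsp90b1 (GRP94, its Hsp90), Calr (calreticulin, a lectin chaperone for glycoproteins), the disulfide isomerases Pdia4 and Pdia6, and Sdf2l1, a cochaperone of BiP. In Ctrl the sum was highest in cycling FAP-like cells (6090 CPM), followed by tenocyte-like cells (4860 CPM) and FAP-like cells (4751 CPM), whose intervals overlapped. Mymx-led cells came next (4279 CPM), then dendritic cell-like (3835 CPM) and MO/MP-like cells (3812 CPM), again within counting error of each other. The lower end of the order was T cell-like (2030 CPM), B cell-like (1735 CPM) and neutrophil-like cells (1156 CPM). The highest level was 5.27-fold the lowest in Ctrl and 3.71-fold in dKO, where cycling FAP-like cells again stood highest (6526 CPM) and B cell-like cells lowest (1760 CPM). FAP-like cells held 42.5% of all UMIs of these 6 genes in Ctrl and 58.8% in dKO, with 36.3% and 50.3% of all UMIs of the libraries.

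The regulators were ordered otherwise. Xbp1 stood highest in EC-like cells, at 198 CPM in Ctrl and 212 CPM in dKO, and in dKO the Fcna-led cells (207 CPM) were within counting error of them. Atf4 was also highest in EC-like cells (372 and 428 CPM), next to smooth muscle/pericyte-like cells (349 and 359 CPM), a pair within counting error of each other in both libraries. Ddit3, the pro-apoptotic factor CHOP, was highest in neutrophil-like cells (140 and 346 CPM), in Ctrl within counting error of tenocyte-like cells (106 CPM), and lowest in cycling MO/MP-like cells of Ctrl (20.2 CPM). Herpud1, an ER membrane protein of ER-associated degradation (ERAD), was highest in B cell-like cells of Ctrl (274 CPM) and in Mymx-led cells of dKO (271 CPM), each within counting error of the next class, which was tenocyte-like cells of Ctrl (259 CPM) and cycling FAP-like cells of dKO (249 CPM). Sdf2l1 parted from the other chaperones: it was highest in cycling MO/MP-like (146 CPM) and dendritic cell-like cells (130 CPM) of Ctrl, with MO/MP-like cells at 120 CPM, while FAP-like cells had 31.4 CPM, tenocyte-like cells 16.1 CPM and smooth muscle/pericyte-like cells 6.08 CPM.

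**Figure D1:**
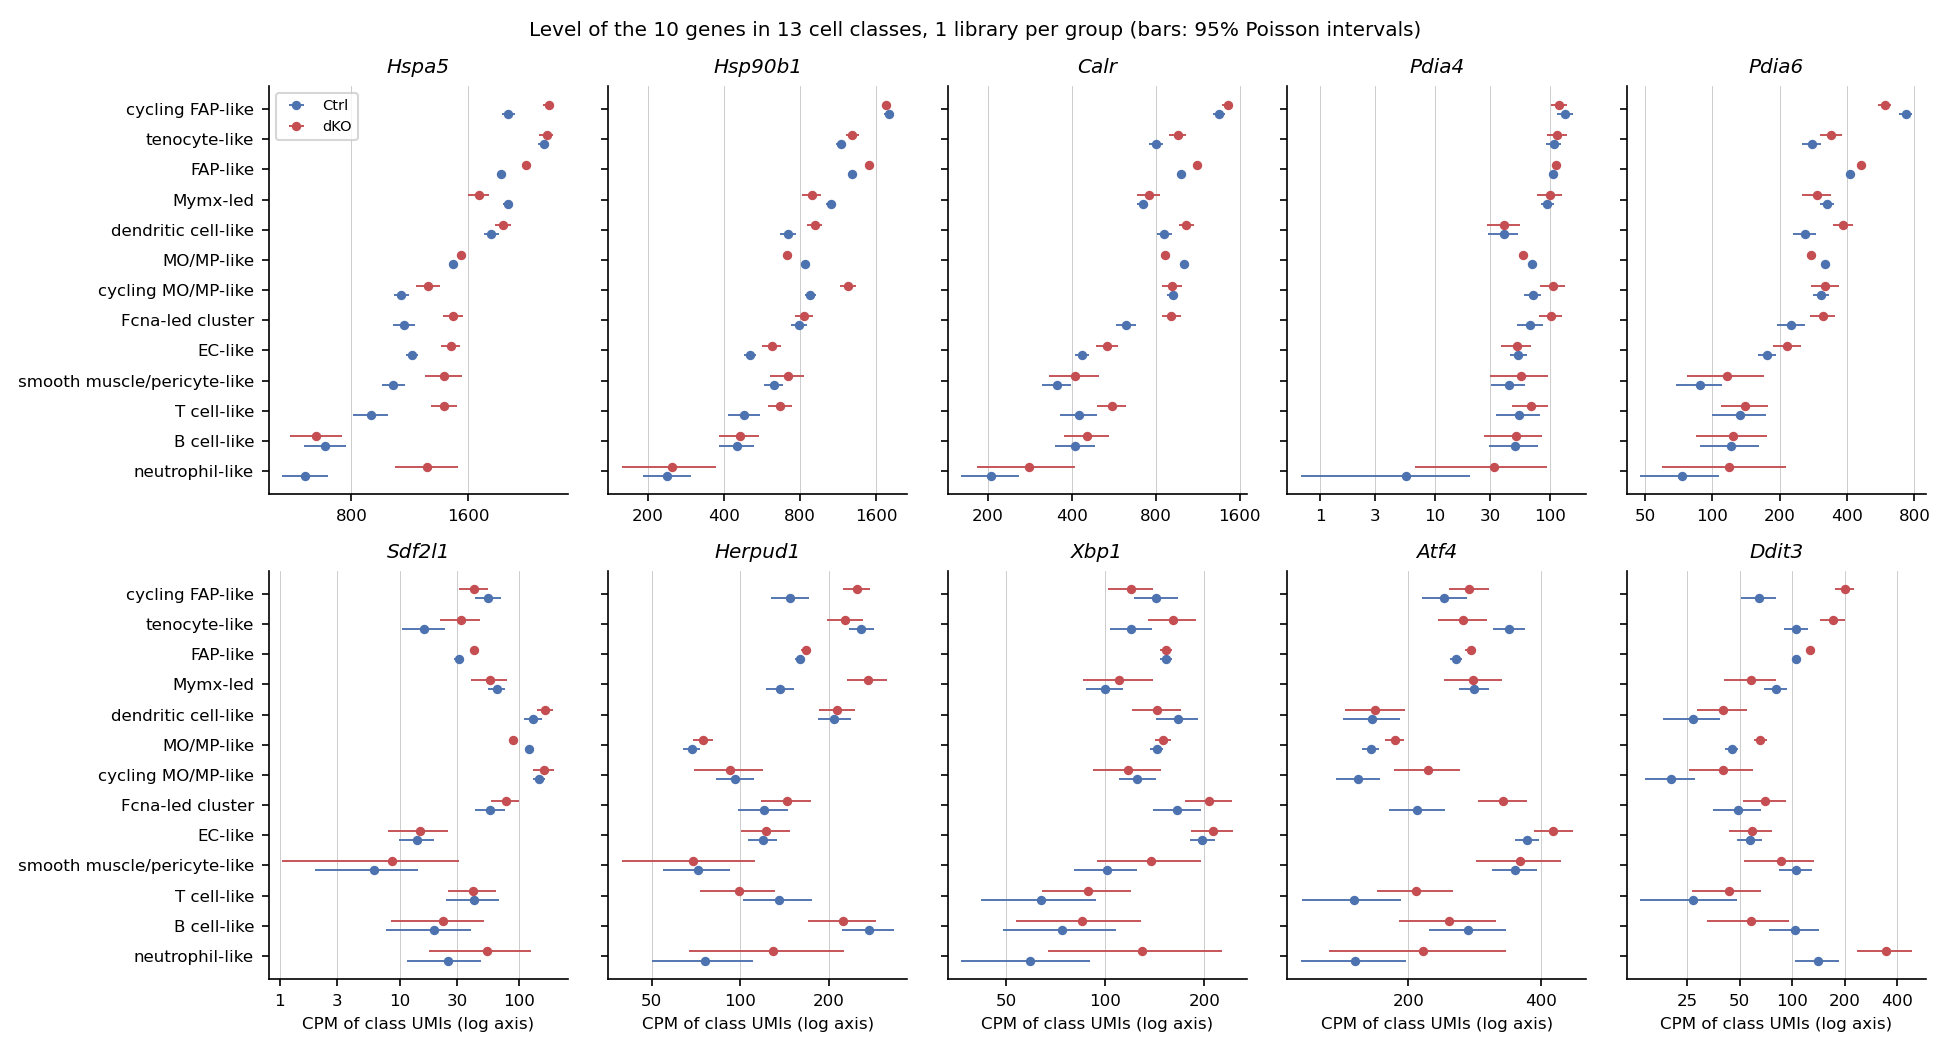
Level of each of the 10 genes (x axis, CPM of class UMIs, log axis) in 13 cell classes (y axis, ordered by the summed chaperones in Ctrl) for Ctrl (blue) and dKO (red), with bars for 95% Poisson intervals. Hspa5 spans 4.10-fold across classes in Ctrl, while Sdf2l1 spans 24.0-fold and is highest in myeloid classes.

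Across classes and libraries the 6 chaperones went together more than the other pairs did. Over 26 points (13 classes in 2 libraries), Pearson's r of log2(CPM + 1) ranged from 0.17 to 0.96 over their 15 pairs, with a median of 0.76, and was highest for Calr with Pdia6. The lowest 5 of those pairs were those of Sdf2l1. The other 30 pairs of members ranged from -0.68 (Sdf2l1 with Atf4) to 0.55, with a median of 0.19. Points share libraries, and depth moved with the level: the summed chaperones had r = 0.83 with the median UMIs per cell of the class, on log2 scales. The part of depth in this order was not tested.

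**Figure D2:**
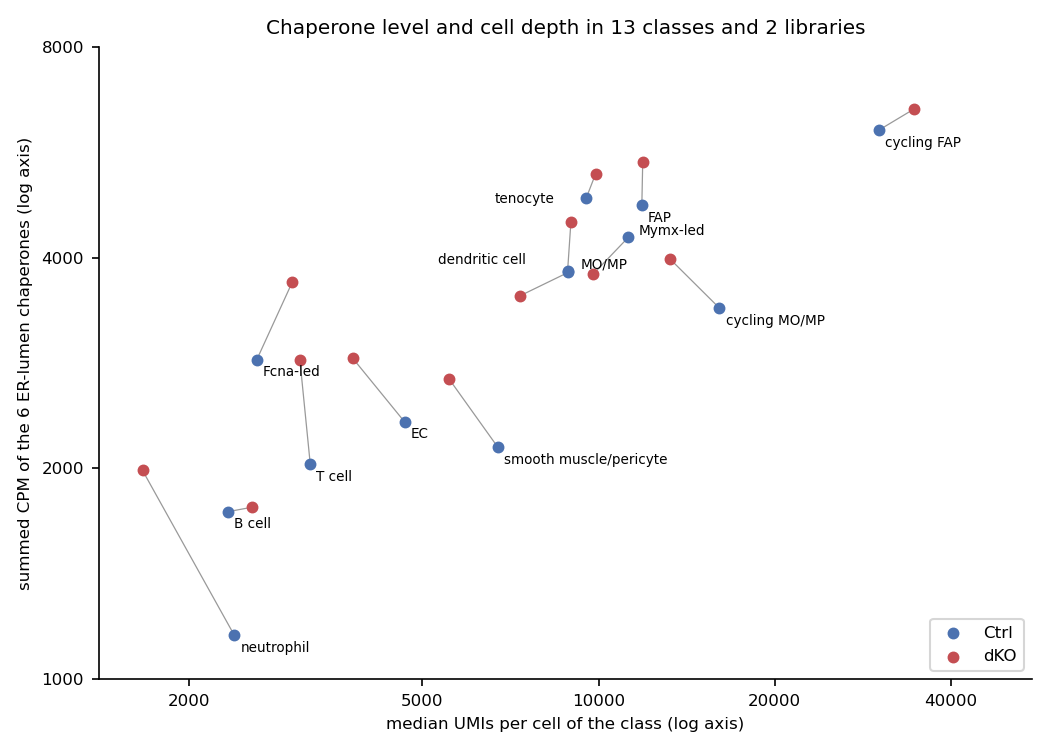
Summed CPM of the 6 ER-lumen chaperones (y axis, log axis) against the median UMIs per cell of the class (x axis, log axis), 1 point per class and library, with lines joining Ctrl (blue) and dKO (red) of a class. Cycling FAP-like cells have the deepest cells and the highest level, and neutrophil-like cells are near the low end of both.

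Among 7375 genes at 50 CPM or more in some class, those most like the 6 chaperones across these 26 points were Mydgf (r = 0.93), Rpn1 (0.91), a subunit of the oligosaccharyltransferase, the disulfide isomerase Pdia3 (0.89), the translocon genes Ssr4 (0.88) and Ssr1 (0.87), Dnajb11 (0.87), a cochaperone of BiP, and Ufc1, Sec61g, Lrrc59 and Magt1 (0.86 each). Ctrl classes alone shared 5 of these 10, and dKO classes alone shared 5. Closest to Atf4 were Rock2 (0.88), Strn3 (0.86) and Nbeal1 (0.85). For Xbp1 these were Anxa7 (0.89), Bst2 (0.83) and Phf11d (0.83), and for Ddit3 they were Csf1 (0.75), Pofut2 (0.68) and Fam114a1 (0.67). Herpud1 was closest to Gas5 (0.72), Egr3 (0.67) and Scd1 (0.67).

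FAP-like cells, the collagen-secreting stromal cells of muscle, had higher levels of 8 of the 10 genes in dKO beyond counting error, while the intervals of Xbp1 and Herpud1 held 1. Of the wider pathway lists described further on, the summed isomerase, ERAD, translocon and collagen-folding lists had ratios below 1 (0.944, 0.959, 0.945 and 0.923). The median ratio over all genes in these cells was 0.959, so the isomerase, ERAD and translocon sums lay near it. The further chaperones (1.04) and integrated stress response targets (1.07) had ratios above 1. The interval of the UPR sensors held 1 (0.973, 0.929 to 1.02). The differences of the members were small. Hspa5 had 28671 UMIs in Ctrl and 34337 in dKO, or 1938 CPM (1916 to 1961) and 2247 CPM (2224 to 2271). The dKO level was higher by a ratio of 1.16 (1.14 to 1.18), beyond counting error. Hsp90b1 went from 1280 to 1493 CPM (1.17, 1.14 to 1.19), Calr from 982 to 1127 CPM (1.15, 1.12 to 1.17) and Pdia6 from 414 to 463 CPM (1.12, 1.08 to 1.16). Pdia4 was at 106 and 114 CPM (1.08, 1.00 to 1.15). Sdf2l1 had 465 and 643 UMIs, or 31.4 and 42.1 CPM, a ratio of 1.34 (1.19 to 1.51).

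Of the regulators in FAP-like cells, Ddit3 had 1558 Ctrl and 1919 dKO UMIs, or 105 and 126 CPM (1.19, 1.11 to 1.28), and Atf4 was at 257 and 277 CPM (1.08, 1.03 to 1.13). Xbp1 was level at 153 CPM in both (1.00, 0.945 to 1.06), and Herpud1 at 160 and 167 CPM had an interval that held 1 (1.05, 0.988 to 1.11). The interval lay above 1 for 8 of 10 members, beside 14.2% of the 10243 genes with at least 100 UMIs in these cells. A ratio of at least 1.3, the fold used here to call a gene higher, was reached by Sdf2l1 alone, 1 of 10, beside 6.15% of those genes. No member was lower by that fold, beside 9.56% of genes. The median log2 ratio of the members was 0.18, against -0.06 over all genes. The Sdf2l1 call was kept in 5 of 10 alternatives that left this fold as it was and was lost at 1.5-fold, and its ratio ran from 1.15 to 1.40. With each cell thinned to 2000 UMIs, the mean of the 6 chaperones per cell was 8.37 UMIs in 1024 Ctrl cells and 9.84 UMIs in 1089 dKO cells. Median depth was near equal, at 11855.5 and 11897 UMIs per cell. The cytosolic heat shock list had a summed ratio of 0.978 in these cells and the immediate early list 0.947. Of the marker lists of other cell types, dendritic cell markers went from 314 CPM (0 of 10 genes at 0) to 597 CPM (3 of 10 at 0), MuSC markers from 428 to 542 CPM (1 of 11 at 0 in each), EC markers from 50.8 to 14.2 CPM (0 of 11 at 0 in each) and myocyte markers from 45.0 to 14.5 CPM (0 of 9 at 0 in each). Their part in the members' ratios was not tested.

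MO/MP-like cells, the phagocytes of the infiltrate, differed in both directions. Sdf2l1 was lower in dKO by most, with 1470 UMIs in Ctrl and 692 in dKO, or 120 and 87.7 CPM, a ratio of 0.728 (0.665 to 0.798). Hsp90b1 was lower as well, at 834 and 710 CPM (0.851, 0.824 to 0.880), as were Calr at 1008 and 867 CPM (0.860, 0.835 to 0.886), Pdia6 at 320 and 275 CPM (0.860, 0.816 to 0.907) and Pdia4 at 70.0 and 58.6 CPM (0.836, 0.745 to 0.937). Hspa5 did not go with them, at 1460 and 1529 CPM (1.05, 1.02 to 1.07). The 6 chaperones together were at 3812 and 3527 CPM (0.925, 0.912 to 0.939).

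Ddit3 was higher in dKO MO/MP-like cells, with 551 UMIs in Ctrl and 518 in dKO from fewer cells, or 45.1 and 65.7 CPM, a ratio of 1.45 (1.29 to 1.64). Atf4, which acts upstream of it, was at 164 and 186 CPM (1.13, 1.06 to 1.21). Xbp1 (143 and 150 CPM) and Herpud1 (68.4 and 74.8 CPM) had intervals that held 1. By the fold, 1 of 10 members was higher, beside 10.8% of 8502 genes, and 1 of 10 was lower, beside 8% of genes, so both shares are near those of all genes. Both calls were kept in 11 of 11 alternatives that left the fold at 1.3 and were lost at 1.5-fold. The ratios ran from 1.37 to 1.53 for Ddit3 and 0.707 to 0.749 for Sdf2l1. The median log2 ratio was -0.08 over the members and -0.00 over all genes. Depth was lower in dKO, with medians of 8877.5 and 7336 UMIs per cell. Summed cytosolic heat shock genes went from 9430 to 11952 CPM (5 of 10 genes higher by the fold) and immediate early genes from 5310 to 6678 CPM (6 of 12). FAP markers went from 545 to 697 CPM (0 of 11 genes at 0 in each), MuSC markers from 254 CPM (1 of 11 at 0) to 398 CPM (2 of 11 at 0) and neutrophil markers from 210 to 101 CPM (0 of 10 at 0 in each). The part of these lists in the members' ratios was not tested.

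EC-like cells, which line the vessels, had higher chaperone levels in dKO, where the class was smaller (179 cells beside 464). Hspa5 had 3039 and 1256 UMIs, or 1145 and 1441 CPM, a ratio of 1.26 (1.18 to 1.34). Hsp90b1 was at 507 and 616 CPM (1.22, 1.10 to 1.35), Calr at 436 and 535 CPM (1.22, 1.10 to 1.37) and Pdia6 at 176 and 216 CPM (1.23, 1.03 to 1.45). Atf4 was at 372 and 428 CPM (1.15, 1.02 to 1.297). These 5 of 10 intervals lay above 1, beside 12.5% of 4727 genes. The other 5 held 1: Xbp1 (1.07, 0.904 to 1.27), Herpud1 (1.03, 0.817 to 1.28), Ddit3 (1.02, 0.729 to 1.41), Pdia4 (0.971, 0.679 to 1.37) and Sdf2l1, which had 37 and 13 UMIs (1.07, 0.522 to 2.06). No member was past the fold in either direction, beside 10.8% of genes higher and 16.1% lower. The median log2 ratio was 0.15 over the members and -0.03 over all genes. The 6 chaperones together had a ratio of 1.23 (1.18 to 1.29), and of 1.14 when each cluster was given the share of UMIs it holds in Ctrl. Median depth was 4661.5 and 3802 UMIs per cell, and the summed ratios of the heat shock and immediate early lists were 0.942 and 0.990. Markers of other cell types also moved in this class: FAP markers went from 1642 CPM (0 of 11 genes at 0) to 2148 CPM (1 of 11 at 0), MuSC markers from 426 CPM (2 of 11 at 0) to 832 CPM (6 of 11 at 0), and smooth muscle and pericyte markers from 994 CPM (0 of 11 at 0) to 638 CPM (1 of 11 at 0). Their part in the chaperone ratios was not tested.

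The Mymx-led class holds the myogenic cells, and only 30 of them were in the dKO library. Summed over the class, all 11 MuSC markers had UMIs in both libraries. Pax7 was at 56.7 and 50.1 CPM and Myf5 at 100.0 and 118 CPM. Others differed more: Cdh15 went from 213 to 66.3 CPM, Megf10 from 40.7 to 12.9 CPM and Vcam1 from 202 to 309 CPM. The leading genes of the class, among them Mymx (myoblast fusion), Myog, Chrna1, Chrng and Ttn, are those of differentiating muscle cells. The class is therefore called by its leading gene, and stem cells and their differentiating progeny were not separated in it. Gal, also among its leading genes, went from 1719 to 208 CPM, and the part of these differences in the members' ratios was not tested. Herpud1 was the member that differed most. It had 316 UMIs in Ctrl and 168 in dKO, or 137 CPM (122 to 153) and 271 CPM (232 to 316), a ratio of 1.98 (1.64 to 2.40) and of 1.61 to 2.003 over 8 alternatives. A Herpud1 UMI was found in 65.0% of Ctrl and 86.7% of dKO cells. With cells thinned to 2000 UMIs these shares were 25.4% of 112 Ctrl cells (5 shallower cells left out) and 45.7% of 30 dKO cells. No class lacks Herpud1 and so gives its background. The cell richest in Herpud1 held 16.1% of the dKO UMIs.

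Hspa5 was lower in dKO Mymx-led cells, at 2023 and 1702 CPM (0.841, 0.786 to 0.8996), and Hsp90b1 at 1056 and 889 CPM (0.842, 0.766 to 0.924). Over 8 alternatives the Hspa5 ratio ran from 0.768 to 1.01, the last with cells thinned to equal depth, and the Hsp90b1 ratio from 0.795 to 0.941. Thinned in this way, the 6 chaperones averaged 10.5 UMIs per Ctrl cell and 10.8 UMIs per dKO cell, a ratio of 1.03, against 0.887 (0.847 to 0.928) from summed UMIs. Ddit3 had 186 and 36 UMIs, or 80.5 and 58.2 CPM, with an interval that held 1 (0.723, 0.491 to 1.04), and the top cell held 17.7% of its Ctrl UMIs. Over 8 alternatives the Ddit3 ratio ran from 0.710 to 0.971 and was past the fold in 3. The intervals of Calr (1.05), Pdia4 (1.05), Pdia6 (0.903), Sdf2l1 (0.877), Xbp1 (1.10) and Atf4 (0.995) held 1 as well. By the fold 1 of 10 members was higher, beside 17.3% of 3982 genes, and 1 of 10 was lower, beside 22.4%. The median log2 ratio was -0.08 over the members and -0.01 over all genes. Myocyte markers went from 2357 to 4245 CPM in this class, cycling markers from 1034 to 677 CPM, FAP markers from 933 to 462 CPM and haemoglobin and other erythroid markers from 0.866 (3 of 5 genes at 0) to 113 CPM (1 of 5 at 0). Their part in the Herpud1 difference was not tested.

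**Figure D3:**
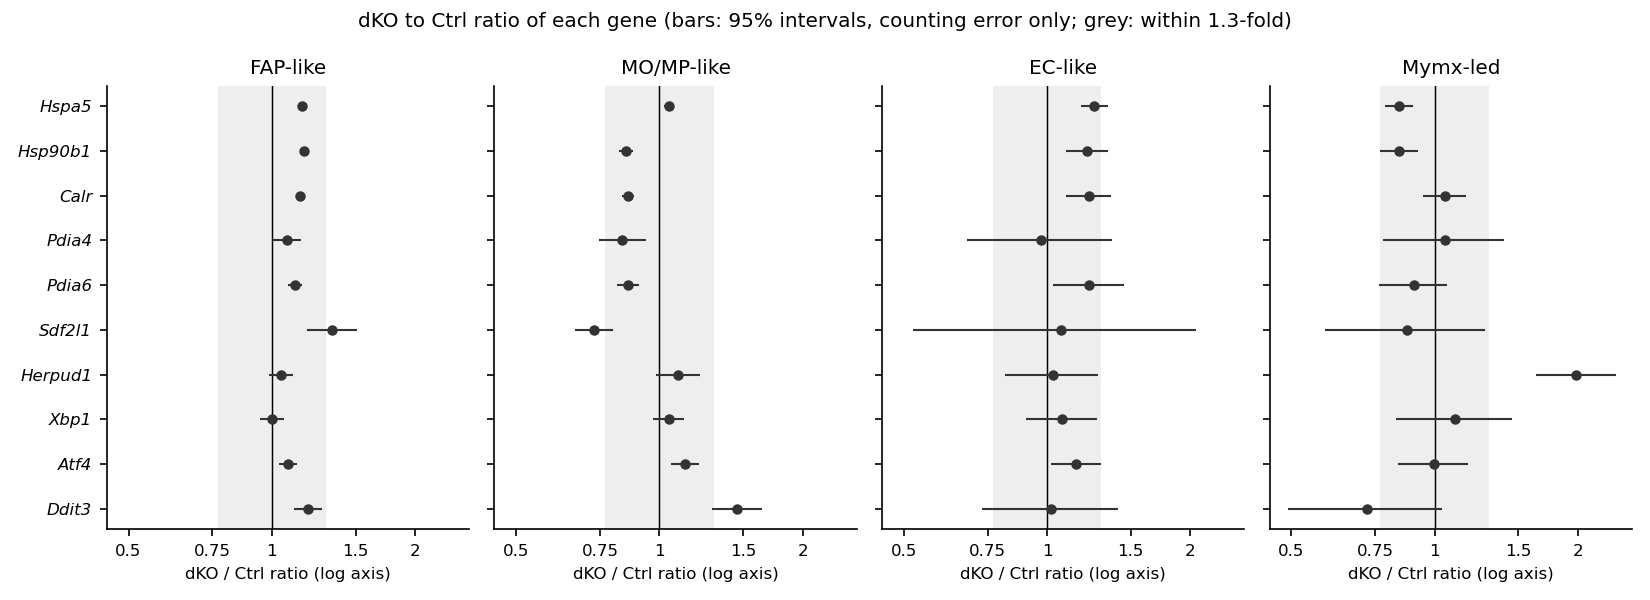
dKO to Ctrl ratio of each gene (x axis, log axis) in FAP-like, MO/MP-like, EC-like and Mymx-led cells, with 95% intervals for counting error and a grey band for ratios within 1.3-fold. Points outside the band are Sdf2l1 in FAP-like cells (1.34), Ddit3 (1.45) and Sdf2l1 (0.728) in MO/MP-like cells and Herpud1 (1.98) and Ddit3 (0.723) in Mymx-led cells.

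In the smaller classes ratios rested on fewer UMIs and differed from class to class. In T cell-like cells (118 Ctrl, 137 dKO) Hspa5 had 365 and 673 UMIs, or 898 and 1388 CPM, a ratio of 1.55 (1.36 to 1.76) that ran from 1.41 to 1.55 over 8 alternatives. Hsp90b1 was at 480 and 664 CPM (1.38, 1.16 to 1.66) and Calr at 423 and 557 CPM (1.32, 1.08 to 1.602). By the fold 6 of 10 members were higher, beside 13.9% of 1204 genes, a share taken over genes with at least 100 UMIs in both libraries together. Of the 6 members with that many UMIs 4 were higher by the fold, and 4 of 6 had an interval above 1, beside 13.1% of genes. Herpud1 was at 135 and 99.0 CPM (0.732, 0.486 to 1.10). Cycling markers went from 266 to 555 CPM in these cells. MO/MP markers went from 608 CPM (1 of 14 genes at 0) to 837 CPM (2 of 14 at 0). Dendritic cell markers went from 214 CPM (7 of 10 at 0) to 72.2 CPM (4 of 10 at 0). Plasmacytoid dendritic cell markers went from 143 CPM (3 of 6 at 0) to 247 CPM (2 of 6 at 0). Neutrophil markers went from 66.4 CPM (3 of 10 at 0) to 12.4 CPM (6 of 10 at 0). The part of these lists in the difference was not tested.

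In Fcna-led cells 7 of 10 members were higher by the fold, beside 14.8% of 2348 genes, a share over genes with at least 100 UMIs. Of the 9 members with that many, 6 were higher by the fold and 5 had intervals above 1, beside 15% of genes. Calr was at 626 and 909 CPM (1.45, 1.29 to 1.63), Hspa5 at 1092 and 1462 CPM (1.34, 1.23 to 1.46) and Atf4 at 210 and 328 CPM (1.56, 1.28 to 1.91). Hsp90b1 was at 791 and 829 CPM, with an interval that held 1 (1.05, 0.937 to 1.17). Cytosolic heat shock genes went from 19481 to 27072 CPM there and erythroid markers from 92.1 to 450 CPM (1 of 5 genes at 0 in each library), and the immediate early list had a ratio of 1.15 (1.11 to 1.18). FAP markers went from 621 to 941 CPM (0 of 11 at 0 in each), MuSC markers from 597 CPM (4 of 11 at 0) to 975 CPM (6 of 11 at 0), lymphatic EC markers from 260 to 539 CPM (3 of 6 at 0 in each), EC markers from 273 CPM (1 of 11 at 0) to 118 CPM (0 of 11 at 0) and neutrophil markers from 167 CPM (1 of 10 at 0) to 48.0 CPM (5 of 10 at 0). The lymphatic EC list holds Lyve1, which is among the leading genes of the Fcna-led cluster itself. The part of these lists was not tested.

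In tenocyte-like cells 3 of 10 were higher by the fold, beside 10.2% of 3147 genes, and 2 of the 9 members with at least 100 UMIs. Ddit3 was at 106 and 170 CPM (1.61, 1.28 to 2.03), with 35.1% of the dKO UMIs in the top cell, and its ratio ran from 1.302 to 1.80 over 8 alternatives. Sdf2l1, with 25 and 29 UMIs, was at 16.1 and 32.7 CPM (2.03, 1.15 to 3.62), and Xbp1 at 120 and 160 CPM (1.34, 1.07 to 1.67). Atf4 went the other way, at 339 and 266 CPM (0.785, 0.670 to 0.917). Immediate early genes in this class went from 19311 to 15751 CPM (0.816, 0.799 to 0.832), FAP markers from 34794 to 40670 CPM (0 of 11 genes at 0 in each), MuSC markers from 1393 CPM (3 of 11 at 0) to 990 CPM (5 of 11 at 0) and EC markers from 118 CPM (1 of 11 at 0) to 26.0 CPM (6 of 11 at 0). Their part in the ratios was not tested.

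In cycling FAP-like cells (36 and 37) Ddit3 had 77 and 268 UMIs, or 64.8 and 200 CPM (3.08, 2.38 to 4.03). Of those dKO UMIs 33.2% came from 1 cell, and over 5 alternatives the ratio ran from 1.36 to 3.11. Herpud1 in these cells was at 148 and 249 CPM (1.68, 1.40 to 2.03), with a range of 1.06 to 1.83, and Pdia6 at 732 and 588 CPM (0.803, 0.729 to 0.886). In the same class immediate early genes went from 6010 to 7949 CPM (1.32, 1.28 to 1.36), MuSC markers from 401 CPM (6 of 11 genes at 0) to 669 CPM (1 of 11 at 0), EC markers from 130 CPM (1 of 11 at 0) to 11.2 CPM (6 of 11 at 0) and smooth muscle and pericyte markers from 659 to 322 CPM (4 of 11 at 0 in each). Their part in these ratios was not tested. Dendritic cell-like cells had Pdia6 at 258 and 384 CPM (1.49, 1.27 to 1.74). Neutrophil markers there went from 158 CPM (2 of 10 genes at 0) to 306 CPM (7 of 10 at 0). Plasmacytoid dendritic cell markers went from 1221 to 862 CPM (0 of 6 at 0 in each). EC markers went from 80.0 CPM (1 of 11 at 0) to 48.7 CPM (4 of 11 at 0). The part of these lists in the Pdia6 ratio was not tested. Smooth muscle/pericyte-like cells had Hspa5 at 1024 and 1382 CPM (1.35, 1.18 to 1.54). In that class EC markers went from 6404 CPM (0 of 11 genes at 0) to 3426 CPM (1 of 11 at 0) and MuSC markers from 745 CPM (5 of 11 at 0) to 1343 CPM (8 of 11 at 0), and their part was not tested. In B cell-like cells all 10 intervals held 1. Ddit3 there had 38 and 15 UMIs, or 104 and 58.0 CPM (0.557, 0.285 to 1.04), and was past the fold in 8 of 8 alternatives. The summed integrated stress response targets had a ratio of 0.611 (0.523 to 0.712) in these cells.

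Neutrophil-like cells (98 and 36) had 9 of 10 members higher by the fold, beside 32.6% of 607 genes. The share covers genes with at least 100 UMIs, and of the 2 members with that many 1 was higher by the fold. Hspa5 had 217 and 116 UMIs, or 609 and 1253 CPM (2.06, 1.63 to 2.59), and Ddit3 50 and 32 UMIs, or 140 and 346 CPM (2.46, 1.53 to 3.91), with ranges of 1.42 to 2.64 and 1.28 to 2.79 over 8 alternatives. Hsp90b1, the other member with at least 100 UMIs, was at 239 and 248 CPM (1.04, 0.627 to 1.67). The 14 further ER chaperones and cochaperones together went from 559 to 367 CPM (0.657, 0.443 to 0.949). The class itself differed: neutrophil markers were at 244701 CPM in Ctrl and 139975 CPM in dKO, with none of 10 at 0. Immediate early genes there went from 5395 to 7192 CPM (1.33, 1.22 to 1.46). Cycling MO/MP-like cells (106 and 36) had 4 of 10 higher, beside 17.9% of 3467 genes, and 3 of the 9 members with at least 100 UMIs. Hsp90b1 there was at 876 and 1232 CPM (1.41, 1.29 to 1.54), with 30.7% of the dKO UMIs in the top cell, and its ratio ran from 1.03 to 1.51 over 8 alternatives, past the fold in 5. Neutrophil markers in that class were at 25156 CPM in Ctrl (0 of 10 genes at 0) and 396 CPM in dKO (2 of 10 at 0). Plasma cell markers there went from 78.5 CPM (1 of 6 at 0) to 412 CPM (0 of 6 at 0), T cell markers from 206 to 540 CPM (0 of 8 at 0 in each) and EC markers from 543 CPM (0 of 11 at 0) to 139 CPM (4 of 11 at 0). In both classes the part of these lists in the members' ratios was not tested.

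Within FAP-like cells the difference lay mostly outside the cluster with the highest chaperone level. The Inmt-led cluster had the 6 chaperones at 3787 and 4652 CPM (1.23, 1.21 to 1.25), with Hspa5 at 1388 and 1779 CPM (1.28, 1.25 to 1.31). Ddit3 there had 614 and 878 UMIs, or 76.8 and 117 CPM (1.52, 1.37 to 1.69). The Cxcl13-led cluster was similar, with the chaperones at 3739 and 4646 CPM (1.24, 1.20 to 1.29), Ddit3 at 74.7 and 102 CPM (1.37, 1.06 to 1.77) and Herpud1 at 98.9 and 142 CPM (1.44, 1.15 to 1.79). In the Cxcl5-led cluster, whose cells are deeper (medians of 22572 and 20416 UMIs), the chaperones were at 6383 and 6770 CPM (1.06, 1.05 to 1.08). Ddit3 in that cluster was at 154 and 143 CPM (0.933, 0.848 to 1.03). The clustering used these genes, so levels of 1 cluster against another are a description.

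In MO/MP-like cells chaperones were lower in dKO in the Rnf128-led cluster, at 4686 and 3869 CPM (0.826, 0.801 to 0.850), and in the Apoe-led cluster, at 2849 and 2491 CPM (0.874, 0.852 to 0.897). Sdf2l1 was at 177 and 109 CPM in the Rnf128-led cluster (0.615, 0.516 to 0.730), whose median depth was 11928 UMIs in Ctrl and 6986 in dKO. Ddit3 was higher in the Apoe-led (43.2 and 68.3 CPM, 1.58, 1.32 to 1.90) and Ear2-led clusters (32.5 and 62.2 CPM, 1.91, 1.31 to 2.82). Among EC-like clusters, the Selp-led cluster had Hspa5 at 1259 and 1766 CPM (1.40, 1.27 to 1.55), and in the Car4-led cluster the interval of Hspa5 held 1 (978 and 1016 CPM, 1.04, 0.924 to 1.17). The Gkn3-led cluster, with 11.5% and 20.2% of the UMIs of the class, had the highest Hspa5 of these clusters in Ctrl, at 1701 and 1649 CPM, and its interval held 1 as well (0.969, 0.837 to 1.12).

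**Figure D4:**
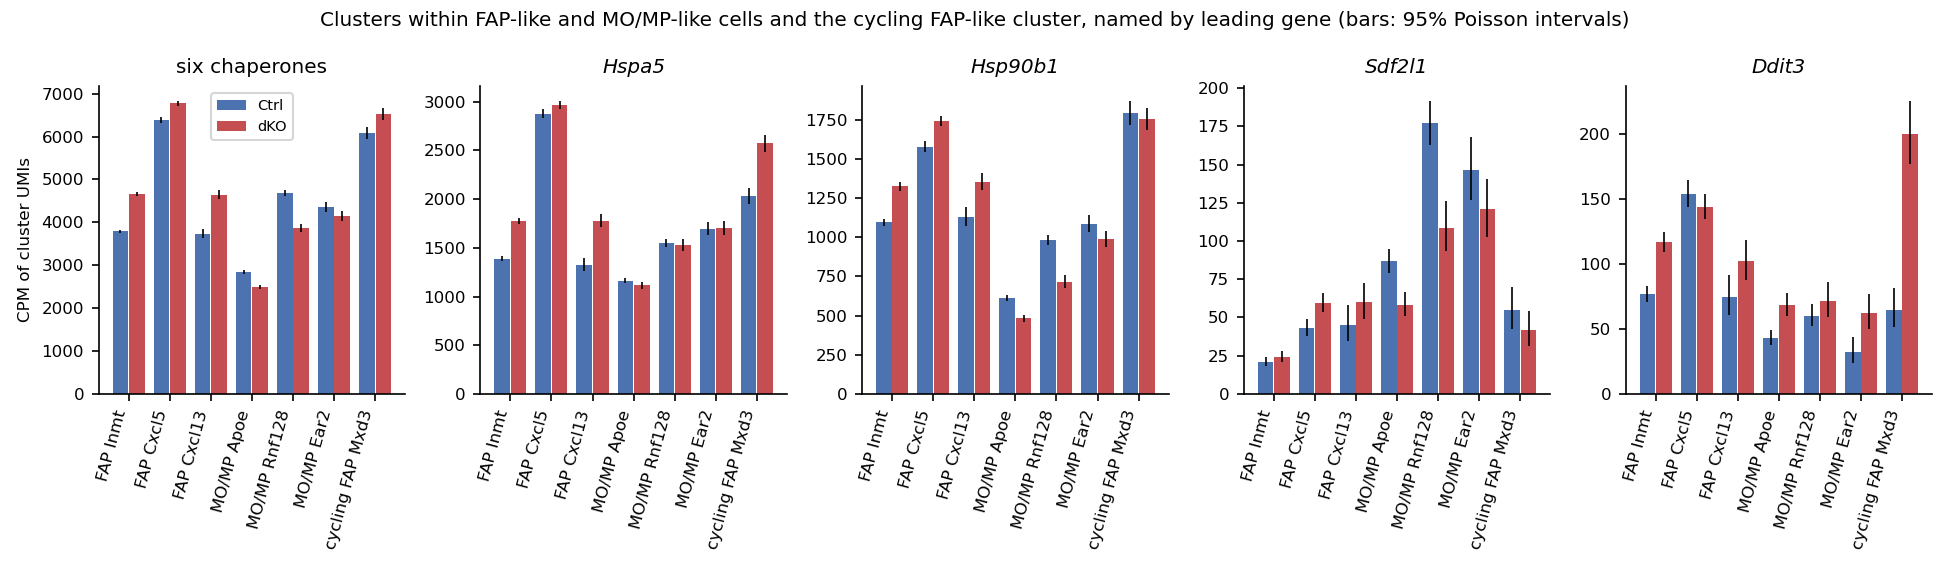
CPM of cluster UMIs (y axis, linear from 0) for the 6 chaperones, Hspa5, Hsp90b1, Sdf2l1 and Ddit3 in 3 clusters of FAP-like cells, 3 clusters of MO/MP-like cells and the cycling FAP-like cluster, named by leading gene, Ctrl in blue and dKO in red with 95% Poisson intervals. The Cxcl5-led cluster has the highest Hspa5 of the FAP-like clusters (2878 and 2967 CPM) and the smallest difference between libraries.

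Around the 10 members, 7 lists of 96 ER and stress genes (95 in the files) placed them in their pathway. In FAP-like cells 3 of 90 list genes with at least 100 UMIs were higher by the fold and 5 were lower, beside 6.15% and 9.56% of all genes. None of 14 further ER chaperones and cochaperones was past it (median log2 ratio 0.02). Ero1l, the oxidase that recharges disulfide isomerases, had 434 and 760 UMIs, or 29.3 and 49.7 CPM (1.70, 1.505 to 1.91), and was the list gene with the highest ratio in these cells. The amino acid transporter Slc7a5 (10.7 and 15.8 CPM, 1.48, 1.21 to 1.82) and Cebpb (509 and 667 CPM, 1.31, 1.27 to 1.35) were also higher. Lower were Pdia5 (45.0 and 31.9 CPM, 0.708), the collagen-folding genes Fkbp10 (147 and 106 CPM, 0.719) and Plod1 (74.2 and 54.8 CPM, 0.739), the ERAD ligase Syvn1 (22.4 and 16.7 CPM, 0.744) and the ATF4-CHOP target Bbc3 (10.1 and 6.74 CPM, 0.669).

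None of 7 UPR sensor genes and none of 15 translocon genes was past the fold in FAP-like cells, beside 6.15% of all genes higher and 9.56% lower. The median log2 ratios were -0.13 and -0.08, beside -0.08 for 13 ERAD genes, -0.19 for 12 collagen-folding genes and -0.06 over all genes.

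In MO/MP-like cells 2 of 81 list genes were higher and 10 lower, beside 10.8% and 8% of all genes. Both that were higher belong to the integrated stress response: Atf3 went from 422 to 681 CPM (1.61, 1.55 to 1.68) and Nupr1 from 41.5 to 66.9 CPM (1.61, 1.42 to 1.82). Atf3 is also an immediate early gene. Lower were Canx (calnexin, the membrane partner of calreticulin; 452 and 330 CPM, 0.729, 0.695 to 0.764), the isomerase Txndc5 (33.1 and 22.2 CPM, 0.670), Prdx4 (93.9 and 67.2 CPM, 0.716) and the signal peptidase subunit Spcs3 (69.5 and 46.0 CPM, 0.662). Median log2 ratios were -0.24 for the chaperone list, -0.20 for the isomerases and -0.23 for the translocon, beside -0.00 over all genes, and none of 8 sensor genes was past the fold.

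EC-like cells had 6 of 66 list genes higher and 6 lower, beside 10.8% and 16.1% of all genes. Nupr1 had 69 UMIs in each library, or 26.0 and 79.2 CPM (3.04, 2.15 to 4.31). P4ha2, a collagen prolyl hydroxylase, was at 30.2 and 59.7 CPM (1.98, 1.37 to 2.84), Creld2 at 24.5 and 40.2 CPM (1.64, 1.05 to 2.51) and Pdia5 at 59.6 and 87.2 CPM (1.46, 1.10 to 1.94). Lower were Gadd45a (56.5 and 31.0 CPM, 0.548, 0.350 to 0.829) and Plod1 (131 and 80.3 CPM, 0.614, 0.468 to 0.796).

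In Mymx-led cells 13 of 65 list genes were higher and 6 lower, beside the 17.3% and 22.4% of all genes given above. The integrated stress response list held 6 of the 13, out of 16 tested, with 1 lower and a median log2 ratio of 0.24. Asns, asparagine synthetase and a target of ATF4, had 117 and 113 UMIs, or 50.6 and 183 CPM (3.61, 2.76 to 4.71). Atf5 had 90 and 62 UMIs, or 39.0 and 100 CPM (2.57, 1.83 to 3.59). Cebpg was at 64.9 and 129 CPM (1.99, 1.498 to 2.63) and Slc7a5 had a ratio of 1.78 (1.24 to 2.52), both named after their values were seen. Atf4 mRNA itself was level (0.995) and Ddit3 was not higher (0.723). Of the ER chaperone list, Manf, which is secreted on ER stress, was at 535 and 326 CPM (0.610, 0.523 to 0.709), and of the isomerases Txndc5 was at 64.5 and 115 CPM (1.78, 1.32 to 2.38). The signal peptidase subunits parted, with Spcs1 at 189 and 265 CPM (1.40) and Spcs2 at 210 and 108 CPM (0.516, 0.393 to 0.667). Serpinh1, the collagen chaperone HSP47, was at 666 and 900 CPM (1.35, 1.22 to 1.49). In the same cells immediate early genes went from 4433 to 3663 CPM, with 7 of 12 lower by the fold, and cytosolic heat shock genes from 14335 to 15483 CPM, with 1 of 10 higher.

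**Figure D5:**
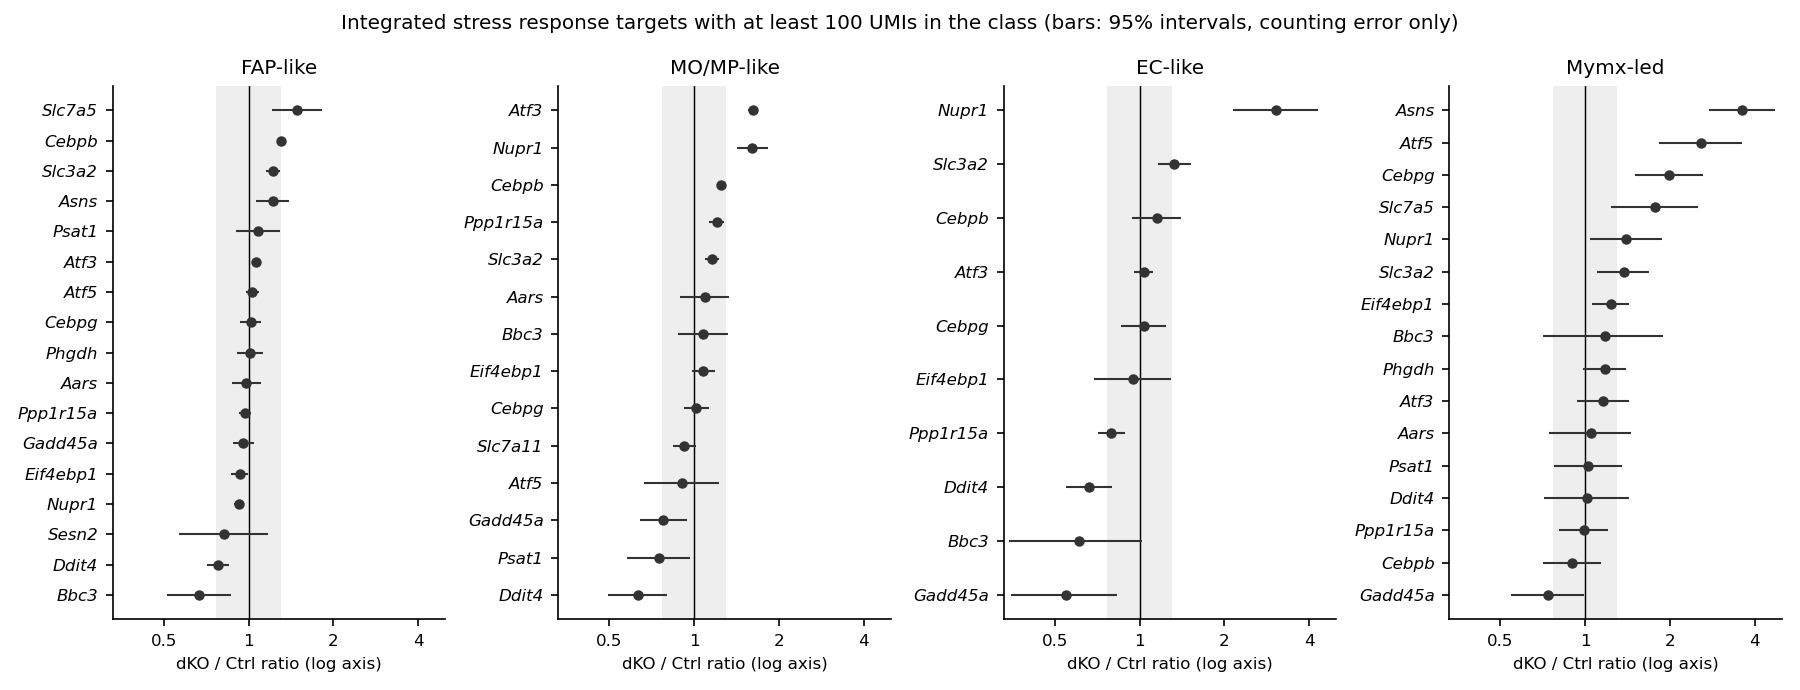
dKO to Ctrl ratio (x axis, log axis) of the integrated stress response targets with at least 100 UMIs in FAP-like, MO/MP-like, EC-like and Mymx-led cells, sorted by ratio in each panel, with 95% intervals for counting error and a grey band for ratios within 1.3-fold. Asns (3.61) and Atf5 (2.57) lead in Mymx-led cells, Nupr1 in EC-like cells (3.04) and Atf3 and Nupr1 in MO/MP-like cells (1.61 each).

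Promoter motifs of the 80 list genes with an entry were counted in the same window. ERSE was found in 5 (6.25%, beside 0.137% of all gene symbols): Canx, Creld2, Derl3, Dnajc3 and Syvn1. ERSE-II was found in Dnajb11, and the CARE core in 9 (11.2%, beside 4.51% of 27025 gene symbols with an entry), among them Asns, Atf3, Nupr1 and Txndc5.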

How the data were processed

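UMI counts per gene and cell were deposited by the authors for 1 Ctrl and 1 dKO library (droplet single cell RNA-seq, 10x Chromium), without normalization and after cell calling. Per the file headers the matrices were written by Cell Ranger 3.0.2, while the submitters' processing notes name Cell Ranger 7.0.0, Seurat 4.3.0, Cufflinks and mm10, which leaves the version used for these counts unsettled. The 24984 symbols include 0 mitochondrial genes, so the study's mitochondrial filter could not act. Symbols were matched to GENCODE M21 (24458, 97.9%).

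Cells with at least 500 genes were kept (192 Ctrl and 154 dKO barcodes left out). Scrublet (scanpy 1.11.5, 30 components) called 4 and 14 doublets by its own threshold. Whether that threshold worked was not tested. The top 7.5% by score, the share named in the study's methods, were left out in each library instead (325 and 250), ties by barcode. Seurat 5.3.0 (R 4.3.3) integrated the libraries (2000 variable genes, 40 dimensions, scale factor 10000) and clustered them at resolution 0.8 into 22 clusters. Clusters were named from marker lists, by at least 3 markers at 2-fold over the median of other clusters in 10% of cells, and by the 10 leading genes (in at least 20% of cells, 50 CPM). The markers were fixed, but details of this naming were set after the clusters were seen. The cluster that met the rule for MuSCs is called Mymx-led, since its leading genes are those of differentiating muscle cells.

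UMIs were summed per class and library. Level intervals are exact Poisson and ratio intervals exact binomial (Clopper-Pearson) at 95%, and cover counting error only. A gene was called past the fold at 1.3 or more, or 0.769 or less, against all genes with at least 100 UMIs in the class. Thinning was averaged over 50 draws. Similarity used log2(CPM + 1). Intervals were checked on Poisson counts drawn with known ratios. Such counts leave out differences between cells, so the check covers counting error only. Promoters are RefSeq's (GRCm38.p6).

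The members and lists (UPR sensors, ER chaperones, isomerases, ERAD, integrated stress response, translocon, collagen folding, cytosolic heat shock, immediate early, cell type markers) were chosen with earlier results of these data known. Named by rule were the members, Yy1, at most 2 genes with the highest and 2 with the lowest ratio of each list and main class, and the genes most alike in pattern. Leading alternatives were doublets kept, 200 genes per cell, resolution 0.4, no integration, thinning to 2000 UMIs, each cell's own CPM, another scaling, the top cell left out, 20 UMIs, 1.5-fold, and 3 chosen after seeing the data (Fcna-led cells counted with MO/MP-like cells, cycling cells counted with their class, cluster shares as in Ctrl). Protein sequences were not used here. Levels within 1 MO/MP-like cluster are not reported here.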

Additional observations from a re-analysis of the deposited data

Results flagged for a closer look

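The Sdf2l1 ratio lay on opposite sides of 1 in the largest classes. The dKO to Ctrl ratio was 1.34 (1.19 to 1.51) in FAP-like cells and 0.728 (0.665 to 0.798) in MO/MP-like cells, so that the first was 1.84 times the second. The FAP-like ratio ran from 1.15 to 1.40 over 10 alternatives and was past the fold in 5. Sdf2l1 was not alone in lying on opposite sides of 1. Hsp90b1 (1.17 and 0.851), Calr (1.15 and 0.860), Pdia4 (1.08 and 0.836) and Pdia6 (1.12 and 0.860) did so too, each within the fold. Hspa5 was above 1 in both classes (1.16 and 1.05). With 1 library per group the difference between the classes was not tested.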

How the results depend on the processing

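No paired analysis was possible because each group had 1 library, and leaving out a replicate was not possible for the same reason. Of 380 member ratios recomputed in the 4 main classes over 11 settings, 344 stayed within the counting interval, 36 moved beyond it and 0 called ratios changed direction. For the 6 chaperones the ratio moved in FAP-like cells to 1.14 with doublets kept, 1.13 at 200 genes, 1.18 thinned and 1.19 by own-cell CPM. In MO/MP-like cells it moved to 0.947 thinned, 0.945 by own-cell CPM, 0.945 with Fcna-led cells, 0.948 with cycling cells and 0.908 with cluster shares as in Ctrl. It moved in EC-like cells to 1.17 by own-cell CPM and 1.14 with cluster shares as in Ctrl, and in Mymx-led cells to 0.951 at 200 genes, 1.03 thinned and 0.978 by own-cell CPM. Members higher by the fold went from 1 to 0 in FAP-like cells at resolution 0.4, thinned, by own-cell CPM, with cycling cells, with cluster shares as in Ctrl and at 1.5-fold, and their median log2 ratio to 0.24 when scaled to the median gene. In MO/MP-like cells both counts went from 1 to 0 at 1.5-fold. In EC-like cells members higher went from 0 to 1 with doublets kept. In Mymx-led cells members higher went from 1 to 2 at 200 genes and thinned, and members lower to 0 with doublets kept, at 200 genes and at 1.5-fold, and to 2 by own-cell CPM. At 1.5-fold list genes numbered 1 higher and 0 lower in FAP-like, 3 lower in MO/MP-like, 3 higher in EC-like and 6 higher in Mymx-led cells. At 20 UMIs they numbered 11 higher and 14 lower in EC-like and 24 higher and 10 lower in Mymx-led cells, where more genes are tested. Of ratios past the fold, those on few UMIs crossed 1 for Pdia4 in neutrophil-like cells (0 at 200 genes and without the top cell), Sdf2l1 in smooth muscle/pericyte-like (0.882 without the top cell), neutrophil-like (0.890 by own-cell CPM) and cycling FAP-like cells (1.12 at resolution 0.4).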

Other observations

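The cytosolic heat shock list, which answers unfolded protein outside the ER, had dKO to Ctrl ratios on the same side of 1 as the 6 ER chaperones in some smaller classes and on the other side in others. Its summed ratio was 1.39 in Fcna-led and 1.04 in tenocyte-like cells, where the chaperones had 1.29 and 1.09. It was 0.903 in T cell-like, 0.840 in dendritic cell-like, 0.811 in smooth muscle/pericyte-like and 0.663 in cycling MO/MP-like cells, where the chaperones had 1.41, 1.17, 1.25 and 1.18. In B cell-like cells it was 0.605 beside 1.01 (0.897 to 1.15) for the chaperones, and in cycling FAP-like cells 0.978 beside 1.07. In neutrophil-like cells it was 0.933, with an interval that held 1 (0.845 to 1.03), beside 1.72. These are values of 1 library per genotype, and no relation between the lists was tested.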
